A study of Homo sapiens with 12 samples.

Results

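The genes described here encode the growth factors that bind the receptors of the EGFR family: EGF, TGFA, HBEGF, AREG, EREG, BTC and EPGN, and the neuregulins NRG1, NRG2 and NRG4. They were taken by name as members of 1 family, with earlier results of these data known, and each was read on the probe set with the highest mean over the 12 arrays. Of the 10 genes, 8 had at least 1 probe set that the platform annotation pairs with a single gene symbol, out of 19775 such genes on the array. AREG and EPGN had none in that annotation and were not analysed here. NRG2 stayed under the filter on low signals, which left 7 ligand genes among the 13185 genes tested.

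The arrays measured RNA of the human cell lines PC9 and HCC827, both from lung adenocarcinoma with an activating EGFR mutation. In all, 4 groups of 3 arrays were compared: PC9 in 2 µM erlotinib, PC9 in DMSO, HCC827 in 2 µM erlotinib and HCC827 in DMSO, each harvested after 8 days. Erlotinib blocks the kinase of EGFR, and DMSO is its solvent. All groups grew in RPMI with 10% fetal bovine serum and had their medium renewed after 4 days. More cells were plated for erlotinib, into flasks, than for DMSO, into dishes, while the design text gives flasks for all, so drug, plating number and possibly vessel cannot be told apart. The erlotinib groups are the cells left after 8 days of drug in 2 lines, and the labels do not say whether replicate arrays had cultures of their own. The p-values therefore measure the spread between these arrays only, and fewer cells of a kind cannot be told apart from less RNA per cell.

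As background, these ligands are made as membrane proteins whose growth factor domain is cut loose by proteases of the ADAM family. EGF, TGF-alpha, amphiregulin and epigen bind EGFR, whereas HB-EGF, betacellulin and epiregulin bind EGFR and ERBB4. The neuregulins of NRG1 and NRG2 bind ERBB3 and ERBB4, and that of NRG4 binds ERBB4. ERBB2 has no known ligand and serves as the partner of the others. Several of the ligand genes are themselves switched on by ERK signalling downstream of EGFR, so that epithelial and carcinoma cells can stimulate themselves. Neuregulin acting on ERBB3 is a known way around EGFR inhibitors.

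Signals are MAS5 values on a linear scale, and changes are on the scale of log2(signal + 8), with a standard error pooled over the 4 groups. Adding 8 damps changes near background and understates the change of dim genes. The table holds no detection calls, so its median of 13 served as the mark of background. A gene was called at an adjusted p under 0.05 in limma. Arrays of a group correlated with r from 0.9926 to 0.9960. PC9 DMSO replicate 2 lay over 2-fold beyond both other arrays of its group on 23 genes and PC9 DMSO replicate 1 on 14, against 1 to 4 genes on the other arrays. Actin control signals at the 3' end were 3.03 ± 0.598 times those at the 5' end in HCC827 with erlotinib, against 2.17 ± 0.0563 times with DMSO (SD, n = 3 each), a ratio that climbs as RNA shortens. Its two-sided p by exact permutation was 0.1, the lowest possible at 3 against 3. In PC9 the ratio was 2.22 ± 0.271 with erlotinib against 2.18 ± 0.152 with DMSO (two-sided p = 1 by exact permutation). The 7 epithelial markers summed to signals between 15082 and 17602 on the arrays of every group, and the 4 measured leukocyte markers to at most 22.9. The epithelial sum does not describe each member. NKX2-1 had mean signals of 47.3 with erlotinib and 14.1 with DMSO in PC9, against 1934 and 2088 in HCC827. With erlotinib KRT7 and NKX2-1 rose and EPCAM fell in PC9, KRT8 fell in HCC827, and the remaining changes were not called. The 6 fibroblast markers summed to 383.8 to 466.6 with erlotinib and 79.4 to 107 with DMSO in PC9, and to 623.9 to 690.4 with erlotinib and 156.2 to 182.6 with DMSO in HCC827. Of these 6, COL1A1 and LUM were bright enough to test and both rose in both lines, and COL3A1 had a mean signal of at most 9.93 in any group. LUM passed the filter only through the erlotinib groups, so the filter favoured its rise. Its mean was 104.4 with erlotinib against 1.4 with DMSO in PC9, and 182.9 against 6.0 in HCC827. The 4 endothelial markers summed to 653.4 to 704.7 with erlotinib and 895 to 988.4 with DMSO in PC9, and to at most 19 in HCC827. Their members moved apart in PC9: PECAM1 had a mean of 506.5 with erlotinib against 835.1 with DMSO, and CDH5 177.8 against 104.9. VWF and KDR were under the filter. The part of these markers in the results below was not tested.

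HBEGF moved in opposite directions in the 2 lines. Its product, heparin-binding EGF-like growth factor, binds EGFR and ERBB4 and is also the receptor of diphtheria toxin. In PC9 its signal was 105.6, 134.5 and 139.5 with erlotinib, against 387.2, 403.6 and 414.8 with DMSO. In HCC827 it was 727.9, 732.3 and 830.2 with erlotinib, against 151.3, 158.9 and 159.6 with DMSO. Each set of erlotinib arrays lay wholly outside its DMSO arrays, below them in PC9 and above them in HCC827. HBEGF fell by 1.62 ± 0.09 on the log2 scale in PC9 (adjusted p = 2.94e-10) and rose by 2.23 ± 0.09 in HCC827 (adjusted p = 1.49e-11), 3.07-fold lower in PC9 and 4.68-fold higher in HCC827. The change in PC9 minus the change in HCC827 was -3.84 ± 0.13 (adjusted p = 4.27e-12), and 19 of the 13185 genes differed more between the lines. A second bright probe set of the gene read 96.6, 120.1 and 141.5 with erlotinib against 330.0, 378.6 and 406.0 with DMSO in PC9, and 627.1, 628.3 and 715.8 with erlotinib against 116.4, 127.8 and 134.6 with DMSO in HCC827. Its changes were -1.59 ± 0.12 in PC9 and 2.31 ± 0.12 in HCC827, so the 2 bright probe sets moved alike. The remaining 2 probe sets of HBEGF had signals of at most 9.5 on every array, and when all 4 were averaged the changes were -0.77 in PC9 and 1.28 in HCC827. With the actin ratio as a covariate the HCC827 rise was 2.35 ± 0.14, and without HCC827 erlotinib replicates 2 and 3, whose actin ratios were 2.99 and 3.64, it was 2.17 ± 0.14.

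**Figure D1:**
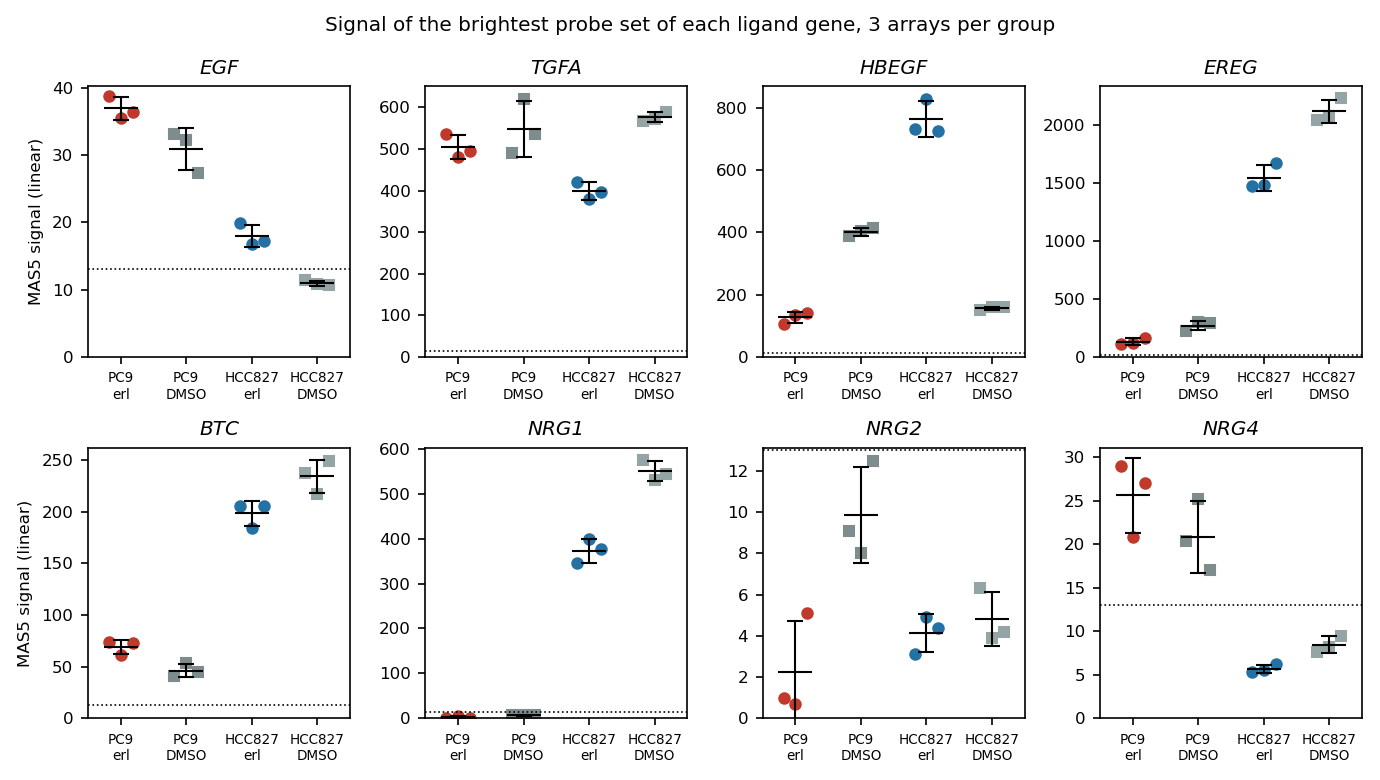
MAS5 signal (linear, own axis per gene) of the brightest probe set of each of the 8 measured ligand genes on every array, in PC9 and HCC827 with erlotinib (erl, circles) or DMSO (squares). Black bars are mean ± SD of 3 arrays, cut at 0, and the dotted line is the table median of 13; HBEGF is lowest in erlotinib-treated PC9 and highest in erlotinib-treated HCC827, and NRG1 lies above the line in HCC827 only.

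The order of the HBEGF groups was thus HCC827 with erlotinib, PC9 with DMSO, HCC827 with DMSO and PC9 with erlotinib, with no overlap between any neighbours. Among all tested genes, 9 fell at least 2-fold in PC9 and rose at least 2-fold in HCC827 with both changes called, and HBEGF was 1 of them. That number ran from 4 to 30 over the alternatives, and with the mean of its probe sets the HBEGF change in PC9 was under 2-fold. By comparison 357 genes rose and 53 fell at least 2-fold in both lines. The 3 genes whose levels over the 12 arrays were most like those of HBEGF were DUXAP10 (Pearson r = 0.9612), RASSF8 (r = 0.9488) and SNX10 (r = 0.9457). These correlations describe 12 arrays that fall into 4 groups and carry no test.

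EREG, which encodes epiregulin, was lower with erlotinib in both lines. In PC9 its signal was 112.9, 116.4 and 166.9 with erlotinib, against 225.1, 288.1 and 296.8 with DMSO. In HCC827 it was 1472.4, 1484.0 and 1672.6 with erlotinib, against 2045.0, 2083.7 and 2234.1 with DMSO. The treatments did not overlap in either line, and every HCC827 array lay above every PC9 array. EREG fell by 1.00 ± 0.12 in PC9 (adjusted p = 2.40e-06) and fell by 0.46 ± 0.12 in HCC827 (adjusted p = 0.00521). The difference of -0.54 ± 0.17 between these changes passed the test (adjusted p = 0.0186), but not without PC9 erlotinib replicate 1 (adjusted p = 0.0536), without HCC827 erlotinib replicate 3 (adjusted p = 0.0521) or with the actin covariate (adjusted p = 0.0992). With that covariate the HCC827 fall had an adjusted p of 0.0691. The second EREG probe set was dim in PC9, between 6.3 and 14.6, and read 75.4 to 122.2 with erlotinib against 97.0 to 111.9 with DMSO in HCC827; its changes of 0.18 ± 0.16 in PC9 and -0.12 ± 0.16 in HCC827 did not pass. The mean of both probe sets gave -0.41 in PC9 and -0.29 in HCC827 (adjusted p = 0.0656).

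HBEGF and EREG fell in PC9 and parted in HCC827, and the sequence around the start of each gene is shown so that the 2 can be compared. These are 300 bases from RefSeq on GRCh38.p14, from 250 before to 50 after the annotated start, written 5′ to 3′ on the gene's strand with matches to 5 searched motifs in capitals. The HBEGF window is chr5:140346554-140346853 on the minus strand and the EREG window chr4:74364895-74365194 on the plus strand.
HBEGF: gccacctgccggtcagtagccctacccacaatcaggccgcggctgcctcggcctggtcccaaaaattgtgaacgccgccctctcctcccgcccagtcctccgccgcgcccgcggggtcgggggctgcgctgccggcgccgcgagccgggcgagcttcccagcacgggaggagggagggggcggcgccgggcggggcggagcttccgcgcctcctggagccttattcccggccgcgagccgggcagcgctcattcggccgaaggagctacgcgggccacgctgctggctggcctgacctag
EREG: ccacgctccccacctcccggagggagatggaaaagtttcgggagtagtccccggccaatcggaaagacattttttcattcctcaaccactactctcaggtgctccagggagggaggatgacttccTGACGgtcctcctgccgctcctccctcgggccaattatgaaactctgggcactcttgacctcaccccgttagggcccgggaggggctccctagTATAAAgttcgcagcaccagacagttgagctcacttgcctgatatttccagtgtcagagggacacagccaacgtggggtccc
The motifs, searched on both strands, were the AP-1 site TGANTCA, the cyclic AMP response element TGACGTCA, its core TGACG (which lies within the full element), the ETS core CCGGAA and the TATA box TATAAA. The HBEGF window held none of these letters, and the EREG window held TGACG from base -125 and TATAAA from base -32, counted from the start. Of 35116 RefSeq windows of this length, 24.6% hold TGACG, 11.5% TATAAA, 17.2% CCGGAA, 7.71% TGANTCA and 1.85% TGACGTCA. Windows were given for 9 of the 10 ligand genes, and the other windows of tested genes held TGAGTCA in EGF, TGACG in 1 of 2 windows and TTCCGG in the other of TGFA, TATAAA at 2 places in NRG4 and no match in BTC. A match describes letters only.

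BTC, which encodes betacellulin, rose in PC9. Its PC9 signals were 61.7, 73.0 and 73.5 with erlotinib, against 40.9, 44.5 and 53.5 with DMSO. The HCC827 signals were 184.7, 205.3 and 206.0 with erlotinib, against 217.0, 237.3 and 248.8 with DMSO. The arrays of the treatments were apart in both lines, higher with erlotinib in PC9 and lower with erlotinib in HCC827. The PC9 rise of 0.51 ± 0.10 was called (adjusted p = 4.08e-04), while the HCC827 change of -0.23 ± 0.10 was not (adjusted p = 0.0777). In HCC827 the change was called in 5 of 25 alternatives. Among them were scaling of the arrays by their median (-0.30, adjusted p = 0.0261) and by quantiles (-0.27, adjusted p = 0.0423). Over all 25 the HCC827 change ran from -0.33 to -0.18. The PC9 change minus the HCC827 change was 0.74 ± 0.15 (adjusted p = 7.08e-04). On the other BTC probe set the change was 0.15 ± 0.12 in PC9 (adjusted p = 0.318) and -0.43 ± 0.12 in HCC827 (adjusted p = 0.00805), so the 2 probe sets shared signs but not calls.

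TGFA, the gene of TGF-alpha, fell in HCC827. Its signals there were 378.7, 397.4 and 421.8 with erlotinib, against 566.5, 572.3 and 590.1 with DMSO. In PC9 they were 481.2, 495.8 and 536.2 with erlotinib, against 489.4, 535.2 and 621.2 with DMSO. The treatments were apart in HCC827 and overlapped in PC9. TGFA fell by 0.52 ± 0.08 in HCC827 (adjusted p = 5.18e-05), and its PC9 change of -0.11 ± 0.08 did not pass (adjusted p = 0.229). That PC9 change passed when arrays were centred on their median (-0.26, adjusted p = 0.0101), without PC9 DMSO replicate 1 (-0.19, adjusted p = 0.0431) and with the mean of the 3 probe sets (-0.30, adjusted p = 0.0117). The difference between the lines was 0.41 ± 0.11 (adjusted p = 0.00847), and it did not pass without HCC827 erlotinib replicates 2 and 3 (0.33, adjusted p = 0.0975). The second brightest TGFA probe set had -0.30 ± 0.18 in PC9 and -0.96 ± 0.18 in HCC827, and the dimmest had -0.47 ± 0.20 in PC9 and -0.49 ± 0.20 in HCC827, so all 3 probe sets of TGFA had negative changes in both lines.

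EGF, the founding member of the family, was dim throughout. With erlotinib its PC9 signals were 35.6, 36.5 and 38.9, against 27.3, 32.3 and 33.2 with DMSO. In HCC827 they were 16.8, 17.3 and 19.9 with erlotinib, against 10.7, 10.8 and 11.4 with DMSO, the last of which lie under the table median. The erlotinib arrays were higher without overlap in both lines. EGF rose by 0.45 ± 0.11 in HCC827 (adjusted p = 0.0025), and the PC9 change of 0.21 ± 0.11 did not pass (adjusted p = 0.102). That PC9 change was -0.021 with quantile scaling and 0.065 with median centring. It passed in the run on means of probe sets (adjusted p = 0.0356) and without the intensity trend (adjusted p = 0.0252). EGF has 1 probe set, so its own values were the same in both of these runs. The difference of -0.24 ± 0.15 between the lines did not pass either (adjusted p = 0.218).

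**Figure D2:**
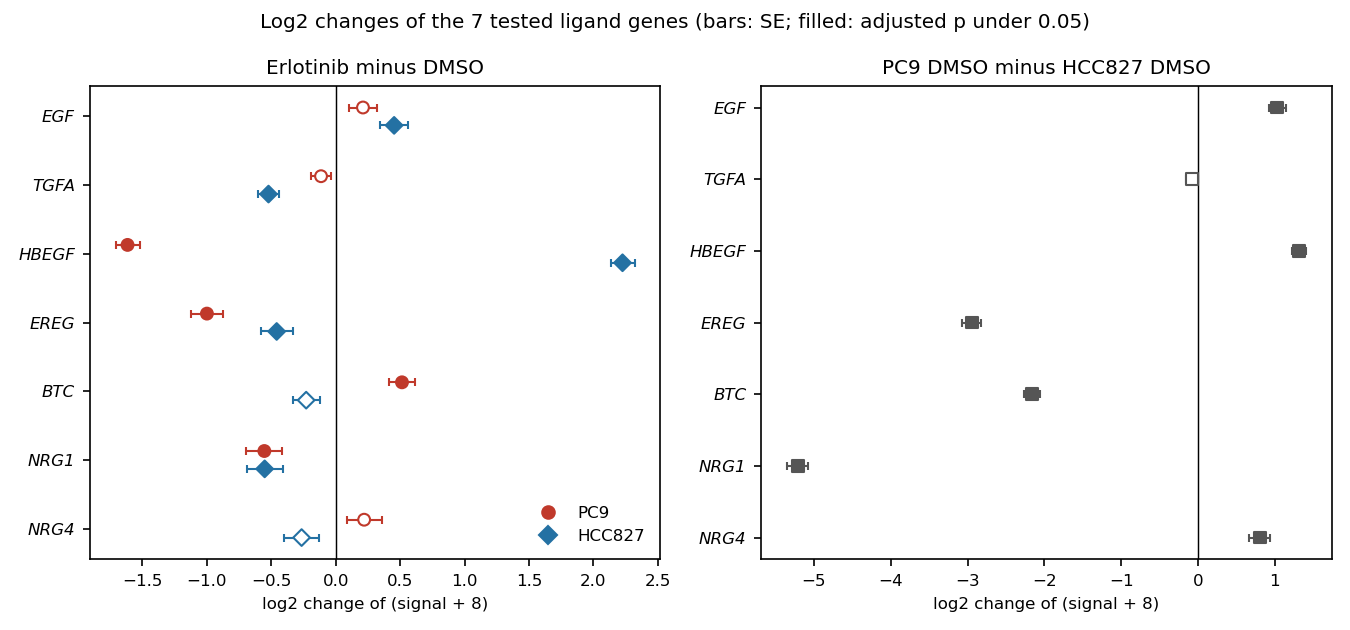
Log2 change of (signal + 8) of the 7 tested ligand genes, for erlotinib minus DMSO in PC9 (circles) and HCC827 (diamonds) on the left and for PC9 DMSO minus HCC827 DMSO (squares) on the right. Bars are ± 1 SE and filled symbols passed an adjusted p of 0.05. HBEGF has -1.62 in PC9 and 2.23 in HCC827, and NRG1 has -5.21 between the lines. NRG1 and NRG4 passed the filter only through the line where they are high. Their squares are drawn filled and with SE bars like the rest, but are to be read as levels and not as passed tests.

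Among the neuregulins, NRG1, the main ligand of ERBB3, was read well above background in HCC827 alone. Its signals in HCC827 were 344.8, 376.4 and 398.3 with erlotinib, against 531.1, 544.7 and 574.3 with DMSO, with no overlap. NRG1 fell by 0.55 ± 0.14 there (adjusted p = 0.00329), but not with the actin covariate (-0.49, adjusted p = 0.101) or with 1 added in place of 8 (-0.56, adjusted p = 0.207). In PC9 the signals were 0.4, 1.5 and 5.5 with erlotinib, against 6.5, 6.7 and 8.0 with DMSO, all under the table median. The PC9 change of -0.55 ± 0.14 passed the test (adjusted p = 0.00223), but it compares values below that mark, and it was -0.055 (adjusted p = 0.561) with the mean of the 6 probe sets. The difference between the lines was -0.003 ± 0.20 (adjusted p = 0.993). It was 0.34 with 32 added in place of 8 (adjusted p = 0.0173) and 0.29 with the mean of all probe sets (adjusted p = 0.0493), so its sign depended on the processing. Of the other NRG1 probe sets, 3 were bright enough to test, and of these the brighter 2 fell in HCC827, by 0.46 ± 0.14 and by 0.49 ± 0.13, and the dimmest had a change of -0.15 ± 0.16 there. None of these 3 passed in PC9.

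NRG4, a ligand of ERBB4, had PC9 signals of 20.8, 27.0 and 29.0 with erlotinib, against 17, 20.4 and 25.2 with DMSO. Its HCC827 signals, all under the table median, were 5.3, 5.5 and 6.2 with erlotinib, against 7.6, 8.2 and 9.5 with DMSO. The treatments overlapped in PC9 and were apart in HCC827. Its changes were 0.22 ± 0.14 in PC9 (adjusted p = 0.166) and -0.26 ± 0.14 in HCC827 (adjusted p = 0.114), neither called. The difference of 0.49 ± 0.19 was called by a narrow margin (adjusted p = 0.0493), and 18 of 23 alternatives, among them 10 of the 12 that left out 1 array, put it over the threshold. NRG2, another neuregulin, had signals from 0.2 to 12.5 on its 3 probe sets over all arrays, all under the table median. On its brightest probe set the signals were 0.7, 1.0 and 5.1 with erlotinib against 8.0, 9.1 and 12.5 with DMSO in PC9, and 3.1, 4.4 and 4.9 with erlotinib against 3.9, 4.2 and 6.3 with DMSO in HCC827. The PC9 arrays were apart and the HCC827 arrays overlapped, and the gene is not counted among the tested genes.

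**Figure D3:**
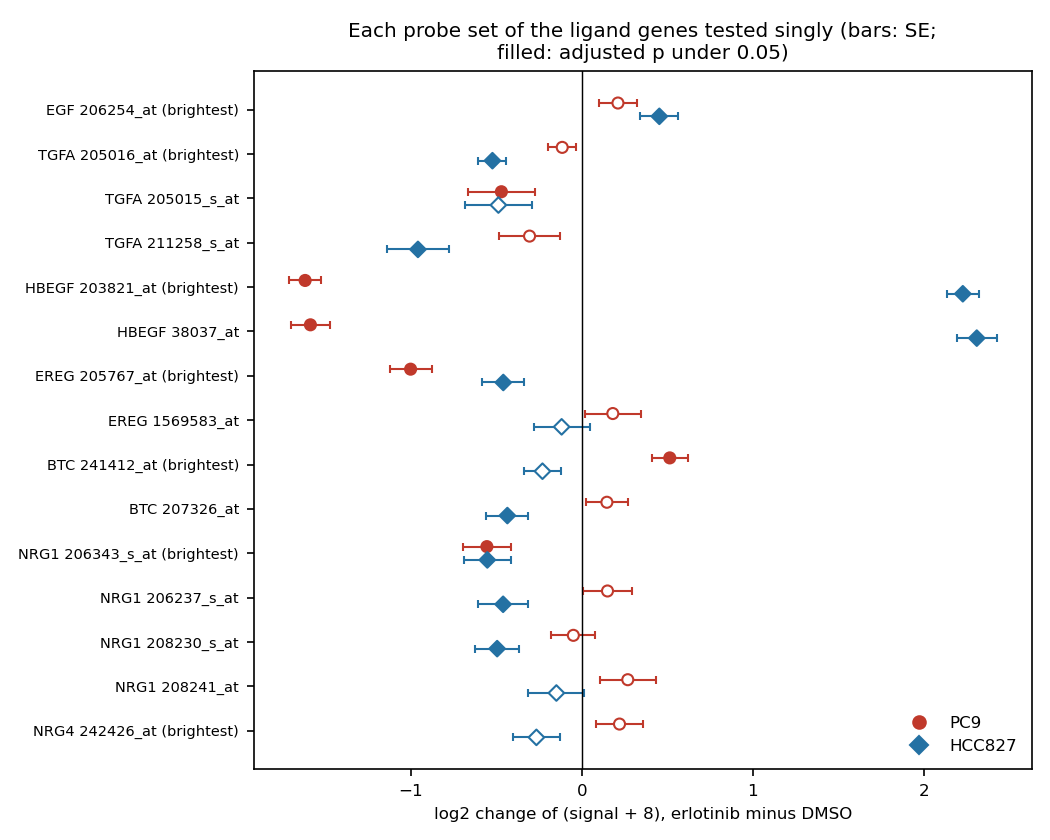
Log2 change of (signal + 8), erlotinib minus DMSO, of each ligand probe set that passed the filter, tested singly, in PC9 (circles) and HCC827 (diamonds). Bars are ± 1 SE and filled symbols passed an adjusted p of 0.05; both HBEGF probe sets lie on opposite sides of 0 in the 2 lines, and the second EREG probe set lies near 0 in both.

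Counted over the group, 1 ligand gene rose, 3 fell and 3 were not called in PC9, where 64.7% of all tested genes were called, 36.3% higher and 28.3% lower. The PC9 falls include NRG1, whose PC9 signals all lie under the table median and which passed the filter through HCC827 only. In HCC827, 2 rose, 3 fell and 2 were not called, against 51.7% of all genes, 32.2% higher and 19.5% lower. Erlotinib and DMSO arrays were apart for 5 of 7 ligand genes in PC9 and 7 of 7 in HCC827, against 64.9% and 62.1% of all genes. The PC9 count holds NRG1 and the HCC827 count holds NRG4. Each passed the filter only through the other line, and its signals in the line counted all lie under the table median. HBEGF was the only called ligand gene past 2-fold in either line, with EREG just short of it in PC9. In the directions of HBEGF, 3.41% of all genes fell at least 2-fold in PC9 and 5.76% rose at least 2-fold in HCC827. These shares leave out the other direction. By size of change in either direction, EREG ranked 1719 of the 13185 genes in PC9, so changes of 2-fold were not rare there. In HCC827 NKD2, which rose by 0.94, ranked 1077. HBEGF ranked 591 in PC9 and 106 in HCC827. Centring each array on its median shifted the median change of all genes in PC9 to -0.10, against 0.047 as deposited, and made 41.6% of calls higher in place of 56.2%. In HCC827 it made 50.4% of calls higher in place of 62.3%. With that centring 1 ligand gene rose and 4 fell in PC9, and 2 rose and 4 fell in HCC827. The median change of the 7 was -0.11 in PC9 and -0.26 in HCC827, against 0.047 and 0.068 over all genes. The PC9 median is the change of TGFA, which was not called there. The HCC827 median is the change of NRG4, also not called, whose HCC827 signals all lie under the table median. These medians therefore do not describe a shift of the ligand genes as a group. The response of 5 of the 7 differed between the lines, 3 higher and 2 lower in PC9, where 45.2% of all genes did, 21.2% higher and 23.9% lower. Of these, HBEGF was the only one with a difference of 2-fold or more, a size that 10.2% of all genes reached with a call. That count of 5 was 3 without PC9 erlotinib replicate 1, 3 without HCC827 erlotinib replicate 3 and 2 without HCC827 erlotinib replicates 2 and 3 together.

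**Figure D4:**
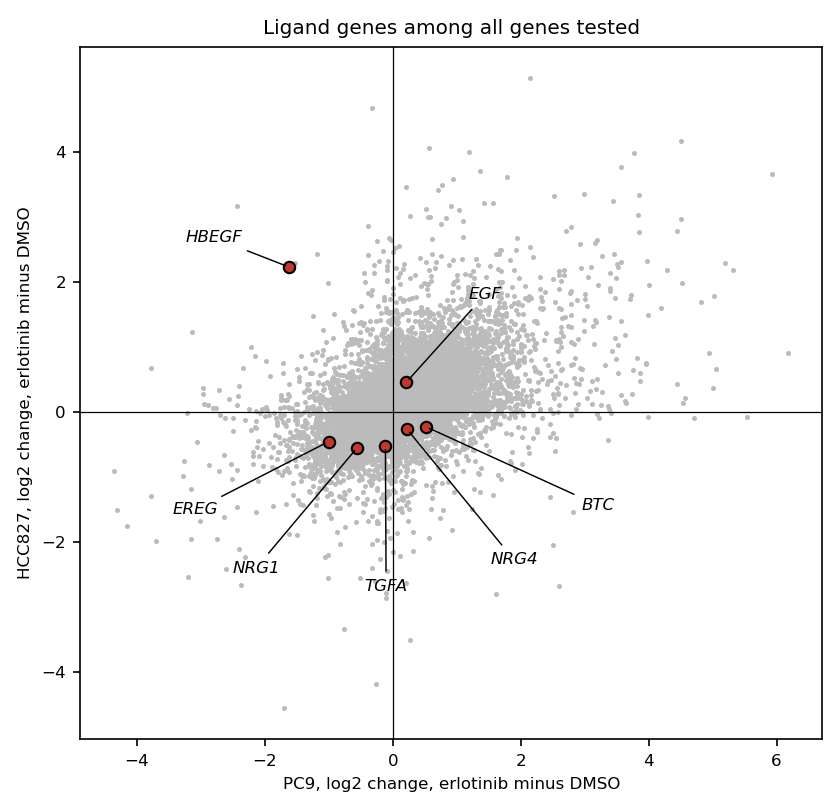
Log2 change of (signal + 8) with erlotinib in PC9 (horizontal) and in HCC827 (vertical) for the 13185 tested genes (grey) and the 7 ligand genes (red). HBEGF lies at -1.62 and 2.23 in the sparsely filled upper left, and the other 6 lie within 1.00 of 0 on both axes.

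Without drug, EREG, BTC and NRG1 were lower in PC9 than in HCC827, and HBEGF, EGF and NRG4 were higher. NRG1 and NRG4 each passed the filter on low signals only through the line where they are high, so the filter itself required a difference and both are given as levels. Of the other 5, 2 were higher, 2 were lower and TGFA was not called, where 76.2% of all genes were called, 36.8% higher and 39.4% lower. Among these 5, arrays of the lines were apart for HBEGF, EREG, BTC and EGF and overlapped for TGFA. Over all genes 78.5% were apart, so such differences were about as common among all genes. These comparisons use the same DMSO arrays as the erlotinib comparisons above. NRG1 had a PC9 signal of 7.07 ± 0.814, against 550 ± 22.1 in HCC827 (SD, n = 3 each). On the scale with 8 added that is a log2 difference of -5.21, which was -6.10 when 1 was added, -3.90 when 32 was added and -2.17 with the mean of the 6 probe sets. EREG had 270 ± 39.1 in PC9, against 2121 ± 99.9 in HCC827, a log2 difference of -2.95 ± 0.12 (adjusted p = 1.34e-12), and its second probe set gave -2.72 ± 0.16. BTC had 46.3 ± 6.49 in PC9, against 234.4 ± 16.1 in HCC827 (log2 -2.16 ± 0.10, adjusted p = 9.38e-12). EREG and BTC lie on chromosome 4 in the order EPGN, EREG, AREG and BTC, with no other protein-coding gene between them.

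HBEGF had 401.9 ± 13.9 in PC9, against 156.6 ± 4.60 in HCC827, a log2 difference of 1.32 ± 0.09 (adjusted p = 1.50e-09). EGF had 30.9 ± 3.18 in PC9, against 11.0 ± 0.379 in HCC827 (log2 1.03 ± 0.11, adjusted p = 2.43e-07; 1.41 with 1 added and 0.55 with 32). NRG4 had 20.9 ± 4.12 in PC9, against 8.43 ± 0.971 in HCC827 (log2 0.80; 1.20 with 1 added and 0.38 with 32). The HCC827 values of both EGF and NRG4 are under the table median, so the size of these 2 differences rests on the constant. TGFA differed by -0.08 ± 0.08 (adjusted p = 0.398) on its brightest probe set, with 548.6 ± 66.9 in PC9 against 576.3 ± 12.3 in HCC827, and by 0.71 ± 0.18 (adjusted p = 0.00183) on the second brightest, so its probe sets disagreed.

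Of the 4 receptors of these ligands, ERBB2 and ERBB3 rose with erlotinib in both lines, where 36.3% of all genes rose in PC9 and 32.2% in HCC827. ERBB4 was called higher too, but it passed the filter only through PC9 with erlotinib, so the filter favoured a rise. The median change of the 4, ERBB4 included, was 0.78 in PC9 and 0.45 in HCC827. EGFR, the drug's target, fell by 0.48 ± 0.05 in PC9, to a signal of 854.9 ± 45.7 with erlotinib against 1195 ± 17.7 with DMSO. In HCC827 it had 2269 ± 136 with erlotinib and 2271 ± 65.5 with DMSO (log2 -0.002 ± 0.05, adjusted p = 0.976). ERBB2, the ligandless partner, rose by 0.97 ± 0.10 in PC9 and by 0.91 ± 0.10 in HCC827. ERBB3, the neuregulin receptor, rose by 0.81 ± 0.07 in PC9 and by 0.40 ± 0.07 in HCC827. ERBB4 had changes of 0.75 ± 0.19 in PC9 and 0.49 ± 0.19 in HCC827, but its mean signal never exceeded 14.0. It was 14.0 with erlotinib against 5.27 with DMSO in PC9, and 12.5 with erlotinib against 6.23 with DMSO in HCC827. The HCC827 rise of ERBB4 was not called with either other scaling (adjusted p = 0.0871 and 0.0905).

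Of 16 genes that process, release or carry the ligands, 6 rose and 4 fell in PC9 (median 0.17), and 6 rose and 1 fell in HCC827 (median 0.11). These shares are close to or below those of all genes, of which 64.7% were called in PC9 and 51.7% in HCC827. In PC9, 4 rose and 5 fell with median centring, and 8 rose and 4 fell with quantile scaling. ADAM17, the sheddase known to release most of these ligands, had a change of 0.000 ± 0.06 in PC9 (adjusted p = 0.999) and rose by 0.31 ± 0.06 in HCC827. The largest called changes in PC9 were those of the metalloprotease ADAM15, which fell by 1.52 ± 0.17, of RHBDF1 (iRhom1, a partner of ADAM17), which rose by 1.11 ± 0.11, and of the rhomboid protease RHBDL2, which rose by 0.88 ± 0.12. In HCC827 they were rises of NKD2, which carries TGF-alpha to the basolateral membrane, by 0.94 ± 0.13, of ADAM12 by 0.90 ± 0.11 and of RHBDF2 (iRhom2) by 0.64 ± 0.10. NKD2 had mean signals of 23.7 with erlotinib and 8.5 with DMSO in HCC827, and of at most 1.1 in PC9. It passed the filter only through HCC827 with erlotinib, so the filter favoured its rise, which is among the 6 counted there.

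Among 12 binding partners and regulators of ligands and receptors, 3 rose and 6 fell in PC9 (median -0.16), and 3 rose and 2 fell in HCC827 (median 0.007), again beside 64.7% and 51.7% of all genes called. In HCC827, 4 fell with median centring and 3 with quantile scaling. CBLB, a ubiquitin ligase of the CBL family, which marks active EGFR for breakdown, rose by 2.78 ± 0.12 in PC9 and by 1.66 ± 0.12 in HCC827. The neuropilin NRP2 fell by 1.19 ± 0.08 in PC9 and fell by 1.43 ± 0.08 in HCC827. CD44, whose heparan sulphate forms hold HB-EGF at the surface, fell by 0.88 ± 0.06 in PC9 and had a change of -0.13 ± 0.06 in HCC827 (adjusted p = 0.076), which passed with either other scaling. The neuropilin NRP1 fell by 0.79 ± 0.10 in PC9 and fell by 0.71 ± 0.10 in HCC827.

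The genes downstream of ERK, among which several ligand genes are usually counted, fell in 15 of 18 cases and rose in 2 in PC9 (median -1.12), and fell in 13 and rose in 2 in HCC827 (median -0.68), where 28.3% of all genes fell in PC9 and 19.5% in HCC827. DUSP6, the phosphatase that switches off ERK, had a signal of 68.1 ± 7.23 with erlotinib against 1358 ± 272 with DMSO in PC9, and 365.5 ± 42.3 with erlotinib against 1252 ± 68.4 with DMSO in HCC827. SPRY4, a Sprouty inhibitor of the pathway, fell by 4.32 ± 0.10 in PC9 and fell by 1.51 ± 0.10 in HCC827. The ETS factor ETV4 fell by 2.72 ± 0.15 in PC9 and fell by 0.91 ± 0.15 in HCC827, and ETV1 fell by 2.13 ± 0.13 in PC9 and fell by 1.55 ± 0.13 in HCC827. Beside this list, HBEGF, EREG and NRG1 fell and BTC rose in PC9, and EREG, TGFA and NRG1 fell and HBEGF and EGF rose in HCC827. The PC9 fall of NRG1 compares signals that all lie under the table median, and none of its other tested probe sets passed in PC9. The EGF signals with DMSO in HCC827 also lie under that median.

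Of 12 transcription factors of the AP-1 and CREB families, 8 rose and 2 fell in each line (median 0.43 in PC9 and 0.31 in HCC827), where 36.3% of all genes rose in PC9 and 32.2% in HCC827. With median centring 7 rose in PC9 and 6 in HCC827. The stress-induced factor ATF3 rose by 3.85 ± 0.15 in PC9 and by 2.77 ± 0.15 in HCC827, and FOSB rose by 1.93 ± 0.20 in PC9 and by 2.49 ± 0.20 in HCC827. FOSL1, which is also in the ERK list, fell by 2.19 ± 0.14 in PC9 and fell by 0.81 ± 0.14 in HCC827, and FOS rose by 1.51 ± 0.20 in PC9 and by 1.62 ± 0.20 in HCC827. Of 19 measured growth factors of other tyrosine kinase receptors, 9 rose and 3 fell in PC9 (median 0.32), and 9 rose and 4 fell in HCC827 (median 0.19), beside 64.7% and 51.7% of all genes called. With median centring 6 fell in PC9 and 6 rose in HCC827. Some of the counted calls rest on low signals. HGF passed the filter only through HCC827 with DMSO, at 21.1 against 10.0 with erlotinib, so the filter favoured its fall there. ANGPT1, counted as a rise in HCC827 at 4.17 with erlotinib against 1.5 with DMSO, passed only through PC9. FGF9, counted as a fall in PC9 at 0.63 with erlotinib against 4.3 with DMSO, passed only through HCC827. KITLG, the ligand of KIT, rose by 2.56 ± 0.09 in PC9 and fell by 0.41 ± 0.09 in HCC827 (difference 2.97 ± 0.13, adjusted p = 5.77e-11). PDGFB rose by 2.33 ± 0.13 in PC9 and by 1.70 ± 0.13 in HCC827, and PDGFD rose by 1.84 ± 0.09 in PC9 and by 2.34 ± 0.09 in HCC827. PROS1, a ligand of the TAM receptors, rose by 1.97 ± 0.12 in PC9 and by 0.79 ± 0.12 in HCC827, and the ephrin EFNA1 rose by 1.96 ± 0.11 in PC9 and by 1.50 ± 0.11 in HCC827.

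**Figure D5:**
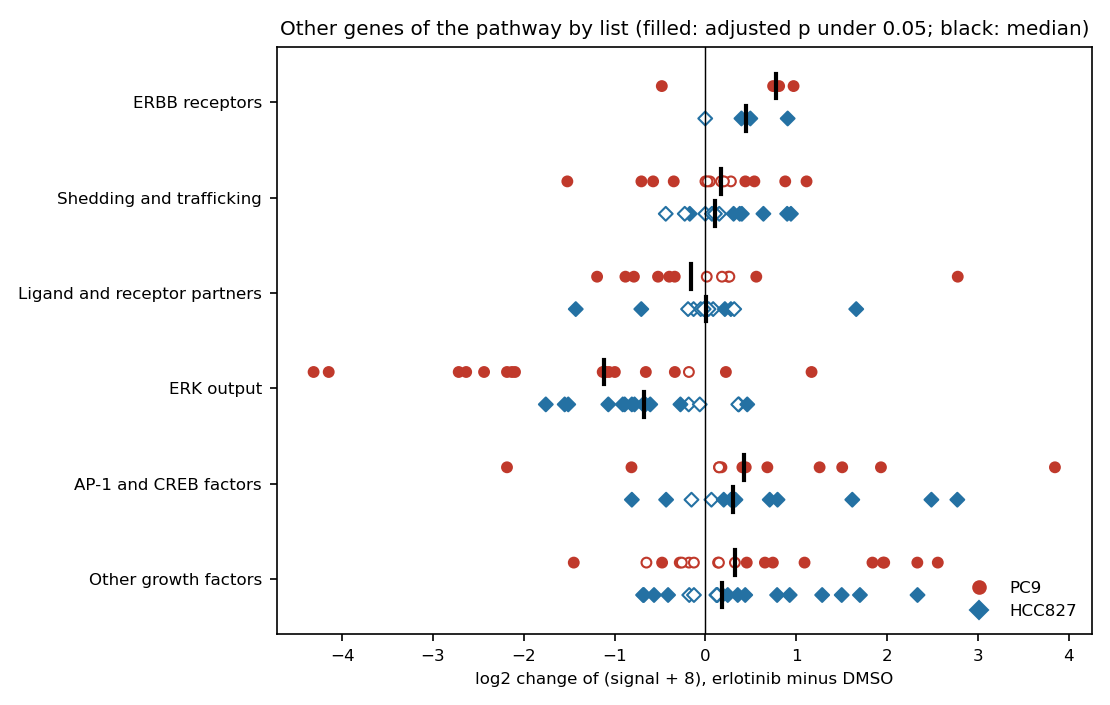
Log2 change of (signal + 8), erlotinib minus DMSO, of every tested gene of 6 lists around the ligands, in PC9 (circles) and HCC827 (diamonds). Each symbol is a gene, filled where it passed an adjusted p of 0.05, and black bars are list medians. The ERK output genes have medians of -1.12 in PC9 and -0.68 in HCC827, and the receptors, ERBB4 included, 0.78 and 0.45.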

How the data were processed

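Per the labels' protocols, RNeasy Plus kits gave the RNA, and NuGEN Ovation reagents were used to amplify it and to add biotin. The deposited values are linear signal intensities that the authors made with MAS5, per the submitters' processing notes; version, scanner settings and detection calls are not given in the sources used here. The 2% trimmed mean lay between 150.01 and 150.02 on every array, so the arrays were already scaled. Of 54675 probe sets, 41091 have 1 gene symbol in the platform annotation, 1801 have several and 11721 have none, beside 62 controls. The number of arrays limits the precision of every value.

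Each gene was read on its brightest probe set and kept if 1 group mean reached 13, the table median. limma 3.58.1 under R 4.3.3 fitted 1 mean per group to log2(signal + 8) with an intensity trend, and p-values were adjusted over all 13185 genes by Benjamini-Hochberg. The procedure was tested on simulated data. Contrasts were erlotinib minus DMSO per line, the difference of these, and PC9 DMSO minus HCC827 DMSO. All members were named, with the receptors, DUSP6, SPRY4 and, of each other list, the 3 largest called changes per line. Members, lists and the alternative without HCC827 erlotinib replicates 2 and 3 were chosen with earlier results of these data known. Same-numbered arrays did not deviate together, so no pairing was used. Protein sequences were not analysed here.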

Additional observations from a re-analysis of the deposited data

Results flagged for a closer look

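The responses of these genes differed between the lines by a test of the difference (PC9 change minus HCC827 change, log2, limma), given as values. Among the ligand genes the differences were -3.84 for HBEGF, 0.74 for BTC, -0.54 for EREG, 0.49 for NRG4 and 0.41 for TGFA, with adjusted p from 4.27e-12 for HBEGF to 0.0493 for NRG4. Those of EREG, TGFA and NRG4 were lost under alternatives named above.

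Among the receptors the difference was -0.48 for EGFR and 0.42 for ERBB3. Among genes of ligand release it was -1.52 for ADAM15, -0.92 for NKD2, 0.74 for RHBDF1, -0.59 for RHBDF2, 0.48 for RHBDL2 and -0.46 for ADAM12. NKD2 passed the filter only through HCC827 with erlotinib, so the filter favoured its difference. Among partners it was 1.12 for CBLB and -0.75 for CD44. In the ERK list it was -2.80 for SPRY4, -2.39 for DUSP6, -1.81 for ETV4, -1.38 for FOSL1 and -0.58 for ETV1, each fall being larger in PC9. It was 1.08 for the factor ATF3. Among other growth factors it was 2.97 for KITLG, 1.18 for PROS1, 0.63 for PDGFB, -0.50 for PDGFD and 0.46 for EFNA1.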

How the results depend on the processing

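HBEGF kept its direction and its call in all 25 alternatives in each line, from -1.76 to -0.77 in PC9 and from 1.28 to 2.35 in HCC827, and in all 24 for the difference, from -3.96 to -2.05. Tested singly, 15704 probe sets were called in PC9, 12531 in HCC827, 10526 for the difference and 18914 between the lines in DMSO, of 26109 tested. With the actin covariate 4149 genes and 3 ligand genes were called in HCC827, and 3 ligand genes for the difference. Without HCC827 erlotinib replicates 2 and 3, where the spread of the lone array is borrowed from the remaining groups, 4399 genes were called in HCC827 and 2 ligand genes for the difference. Leaving out 1 array at a time gave 3 to 5 ligand genes for the difference. The NRG1 difference reversed to 0.34 with 32 added and 0.29 with the mean of probe sets; the cause was not tested. Replicate numbers did not pair the arrays (correlations of deviations from -0.25 to 0.13). With replicate number as a block, 4 ligand genes were called in PC9, 5 in HCC827 and 4 for the difference, where NRG4 was lost (0.49, adjusted p = 0.0698), and 8442, 6654 and 5759 genes. With no filter NRG2 had a change of -0.82 in PC9 (adjusted p = 4.72e-04), of signals under the table median. Without a detection call, signals near 13 cannot be told from background.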

Other observations

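Besides HBEGF, 8 genes fell at least 2-fold in PC9 and rose at least 2-fold in HCC827 with both changes called, and they were listed after their values were seen. NOG, which encodes the BMP antagonist noggin, had log2 changes of -2.43 ± 0.10 in PC9 and 3.17 ± 0.10 in HCC827. PAPPA, a protease that cleaves IGF-binding proteins and so frees IGF, had -1.53 ± 0.12 in PC9 and 2.29 ± 0.12 in HCC827. SH3RF3 had -3.14 ± 0.19 in PC9 and 1.23 ± 0.19 in HCC827, and PXYLP1 had -1.19 ± 0.10 and 2.43 ± 0.10. The sodium channel NALCN had -1.08 ± 0.10 in PC9 and 1.25 ± 0.10 in HCC827. The transcription factor ARNT2 had -1.24 ± 0.19 in PC9 and 1.47 ± 0.19 in HCC827. RNF182 had -1.01 ± 0.17 in PC9 and 1.98 ± 0.17 in HCC827, and GAREM2 had -1.05 ± 0.17 and 1.08 ± 0.17. The opposite pattern, higher in PC9 and lower in HCC827, held for 10 genes. The number of genes with the HBEGF pattern was 30 when 1 was added in place of 8 and 4 when 32 was added. It was 6 with a stricter filter at a signal of 83.7. Signal levels of the 8 genes are not given here. Whether any of them passed the filter only through a group where it is high was not tested.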
